A study of Homo sapiens with 18 samples.

Results

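The genes described here encode the proteins of the cytosolic ribosome. They were taken from the RNA-seq table by symbol, as RPL or RPS followed by a digit, or RPLP0, RPLP1, RPLP2 or RPSA, and only autosomal protein-coding genes were kept, without the RPS6K kinases and without pseudogenes. This gave 82 of the 23500 entries of the table. Of these, 43 encode proteins of the large subunit, 30 encode proteins of the small subunit, 8 are paralogs of such genes, and 1, RPS19BP1, matches the symbol rule but encodes no ribosomal protein. ZR751 is an established luminal, estrogen receptor positive breast cancer cell line. ZR751shMLL3 cells carried a lentiviral hairpin against MLL3 (KMT2C), an H3K4 methyltransferase, and ZR751shLucif cells carried a luciferase hairpin as the control. Both lines were stably transduced, and both were sorted for GFP. Each line has 2 RNA-seq libraries and 2 ChIP-seq libraries each for SP1, H3K4me1 and ERα. With 1 hairpin per line, an effect of the hairpin and of the transduced line cannot be told apart.

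A ribosome holds close to equal numbers of each of its proteins, and the genes for them are among the most highly expressed of any growing cell. Their mRNAs typically begin with a C followed by a run of pyrimidines, the 5′ TOP motif, through which mTOR signalling sets how much of them is translated. Several of the proteins have duties besides building the ribosome, such as the binding of MDM2 by RPL5 and RPL11 when ribosome assembly is disturbed, a step upstream of p53.

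The 5′ TOP motif was searched in GRCh37 at the start of the GENCODE canonical transcript of each gene, as a C within 5 bases of the annotated start followed by 4 or more C or T on the sense strand. It was present in 66 of the 82 ribosomal protein genes (80.5%) and in 21.8% of 18971 autosomal protein-coding genes. The start regions of 6 genes that carry the comparisons run from 10 bases before to 20 bases from the annotated start, with the pyrimidine tract in capitals. RPS26 and RPL37 had the lowest and RPS19 and RPLP2 the highest log2 fold change, and RPS2 and RPS27 had the highest mean level.
RPS26, chr12:56435692-56435721, + strand: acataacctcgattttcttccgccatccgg
RPL37, chr5:40835305-40835334, - strand: gaagtgCCTTCTCTTCCggtctttctggtc
RPS19, chr19:42364315-42364344, + strand: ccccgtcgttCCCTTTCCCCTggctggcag
RPLP2, chr11:809957-809986, + strand: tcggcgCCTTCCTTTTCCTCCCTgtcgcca
RPS2, chr16:2014808-2014837, - strand: aggtctcgttCTTCTTTTCCgacaaaacac
RPS27, chr1:153963228-153963257, + strand: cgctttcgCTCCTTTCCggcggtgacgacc
RPS26 is 1 of the genes without a match at its annotated start, and the other 5 carry a tract of 9 to 17 bases.

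KMT2C, the gene targeted by the hairpin (chromosome 7, 151832007 to 152133729, GRCh37), was examined first. The paper checked the knockdown by a separate qPCR and reported a significant difference. FPKM, the fragments per kilobase of transcript scaled to the mapped fragments of the library, were 2.34 in ZR751shLucif replicate 1 and 6.77 in replicate 2, against 1.07 in ZR751shMLL3 replicate 1 and 2.69 in replicate 2. The log2 fold change was −1.02 with a standard error of 0.54, and limma gave an unadjusted p of 0.106 and an adjusted p of 0.629. The 2 lines overlapped, because ZR751shLucif replicate 1 lay below ZR751shMLL3 replicate 2, and that control is therefore called the library labelled ZR751shLucif replicate 1, or the first control. In the same library the FPKM of all entries summed to 701359, against 487395 to 524210 in the other 3, and 46 of 70 small-RNA entries that passed the expression filter were listed at 0, against 3 to 9 in the other 3. Of the luminal markers, all 6 passed the filter in these cells, with ESR1 between 10.8 and 14.2 FPKM. Their summed FPKM was 7477 and 3179 in ZR751shLucif and 7337 and 6387 in ZR751shMLL3. KRT8 weighed most in these sums, with 4573 and 1652 in ZR751shLucif and 4114 and 3805 in ZR751shMLL3, followed by KRT18. Of the 6 markers, 4 had a higher and 2 a lower mean log2 level in ZR751shMLL3. Of 4 markers of other cell types, PTPRC, COL3A1 and PECAM1 were at or below 0.060 FPKM in every library and COL1A1 lay between 13.1 and 17.8. The summed FPKM of these 4 was 17.9 and 13.2 in ZR751shLucif and 17 and 17.7 in ZR751shMLL3.

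The ribosomal protein genes took up a large part of the measured mRNA in every library. Their FPKM summed to 165059 in the library labelled ZR751shLucif replicate 1, 89150 in ZR751shLucif replicate 2, 84099 in ZR751shMLL3 replicate 1 and 87586 in ZR751shMLL3 replicate 2. As a share of all protein-coding FPKM this was 23.9%, 18.9%, 16.4% and 17.6% in the same order. In bulk RNA, fewer cells that express a gene and less RNA per cell cannot be told apart. The first of these libraries was the highest on both scales, and the other 3 lay within a few percentage points of each other.

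Among the 72 core subunit genes that passed the filter, mean FPKM spanned 34.3-fold, from 173 for RPL27A to 5957 for RPS2, with a median of 1298. The 5 highest were RPS2, which lines the entry of the mRNA channel, RPS27, a zinc finger protein of the small subunit, RPLP1, an acidic protein of the stalk, RPL41, the smallest ribosomal protein, and RPL13A. RPS2 had FPKM of 9202 and 4909 in ZR751shLucif and 5550 and 4168 in ZR751shMLL3. RPS27 had 6020 and 4156 in ZR751shLucif and 3900 and 4203 in ZR751shMLL3. RPLP1 had 6620 and 2966 in ZR751shLucif and 2811 and 2541 in ZR751shMLL3. All 3 were highest in the library labelled ZR751shLucif replicate 1. RPL41 had 4125 and 3640 in ZR751shLucif and 3045 and 3543 in ZR751shMLL3. RPL13A, a component of an interferon-responsive translation inhibitor complex, had 4551 and 2853 against 3132 and 3151. Both were also highest in the library labelled ZR751shLucif replicate 1. Of the 5, RPLP1 and RPL41 were lower in both ZR751shMLL3 libraries than in both ZR751shLucif libraries. The same held for 47.4% of the 78 ribosomal protein genes that passed the filter and 25.3% of all genes tested. FPKM is a level per length of transcript, so these values can be ranked. The ranks also depend on how reads shared with pseudogene copies were assigned.

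Of the 82 genes, 4 did not pass the filter on low values, which asked for a mean log2(FPKM + 0.5) above 1. RPL3L, a paralog known from muscle, lay between 0.038 and 0.111 FPKM. RPL39L, a testis-expressed paralog, was listed at 0 in 2 libraries and at 0.086 and 0.092 in the other 2. RPL10L, another testis paralog, was listed at 0 in all 4 libraries.

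**Figure D1:**
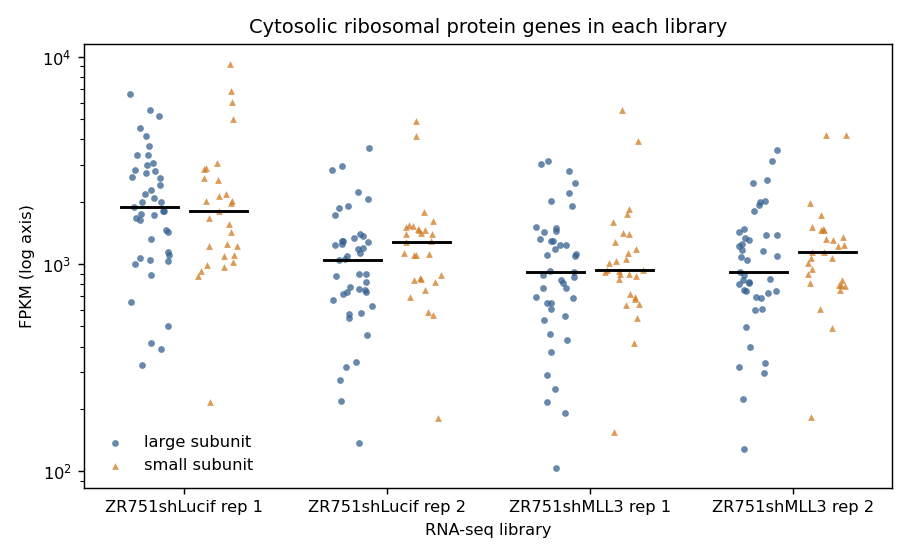
FPKM (log axis) of the 72 core genes that passed the filter in each RNA-seq library, with large-subunit genes as circles, small-subunit genes as triangles and the median of each as a bar. Both subunits sat higher in ZR751shLucif replicate 1, where the median large-subunit gene was at 1887 and the median small-subunit gene at 1799, against 910 to 1046 and 932 to 1278 in the other 3 libraries.

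Gene by gene, the library labelled ZR751shLucif replicate 1 was the highest of the 4 for 69 of the 78 genes that passed the filter (88.5%), and it was the highest for 47.9% of the 11134 genes tested. The share was 42 of 43 for the large subunit and 23 of 29 for the small subunit. On the log2(FPKM + 0.5) scale the median gene stood 0.83 above the mean of the other 3 libraries, or 1.78-fold, and the median of all genes tested stood 0.20 above, or 1.2-fold. It exceeded the mean of the other 3 more than 2-fold for 29 of the 78 genes (37.2%), against 8.43% of the other protein-coding genes tested, and more than 3-fold for 11 of them. The other 3 libraries lay close together, within 1.5-fold for 72 of the 78 genes.

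The 9 genes for which the library labelled ZR751shLucif replicate 1 was not the highest included RPLP2, RPS14, RPS18, RPS19, RPS21, RPSA, RPS19BP1 and the paralog RPL7L1. Small-subunit proteins made up 6 of the 9. For RPLP2, RPS19, RPS21 and RPS19BP1 this library was the lowest of the 4. The order of the genes also differed there, since Spearman's rho over the 78 genes was 0.70 to 0.72 between it and each of the other 3, and 0.93 to 0.97 among those 3. These coefficients are descriptions over genes of the same libraries and are not tests.

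Other highly expressed transcripts were also higher in that library, by less than the ribosomal protein genes. Among 337 other protein-coding genes with a mean above 200 FPKM it was the highest for 63.2%, with a median excess of 0.42 on the log2 scale. Among the 110 of these with a canonical transcript under 1000 bases it was the highest for 70.0%, with a median excess of 0.65. Over the 78 ribosomal protein genes the excess had a Spearman's rho of −0.33 with transcript GC content and 0.10 with transcript length. Over 10511 other protein-coding genes tested the values were −0.17 and −0.26 in the same order. For the log2 fold change of ZR751shMLL3 against ZR751shLucif, rho with GC content was 0.37 and 0.55 in the same groups. These coefficients describe genes that share 4 libraries and are not tests. The part of GC content, level and small-RNA entries at 0 in the excess was not tested.

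The study asked how loss of MLL3 changes gene expression. It reported many up- and downregulated genes from its own linear model, after removing surrogate variables. For the ribosomal protein genes, no difference between the lines passed the threshold of the fit used here. Upon MLL3 knockdown (KD), 72 of 78 had a lower and 6 a higher mean log2 level, with a median log2 fold change of −0.47, against −0.10 over all 11134 genes tested, of which 59.1% were lower and 40.9% higher. By limma with Benjamini-Hochberg adjustment, 0 of 78 had an adjusted p under 0.05, where 1 gene of all those tested did (0.00898%). The count at an unadjusted p under 0.05 was 1 of 78, RPL26L1, where 7.98% of all genes were under it. A gene-by-gene linear model with the first principal component of the residuals removed also called 0, with 16 of 78 under an unadjusted p of 0.05, against 9.92% of all genes in that fit. Both ZR751shMLL3 libraries lay below both ZR751shLucif libraries for 37 of 78 genes (47.4%, against 25.3% of all genes) and above them for 3 of 78, among them RPLP2 and RPS19BP1 (3.85%, against 17.6%). With quantile normalization the median was −0.16, with 54 lower and 24 higher, and with GC content and length trends removed it was −0.20, with 59 lower and 19 higher. Scaling the libraries to a common total of protein-coding FPKM moved the median of all genes from −0.10 to 0.07 and gave 65 lower and 13 higher, with a median of −0.29 for the ribosomal protein genes.

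The size of the difference rested on 1 control library. Without the first control the median over the 78 genes was −0.08 on the log2 scale, against 0.02 over all genes, with 51 genes lower and 27 higher and 0 of 78 called by limma. All genes were split close to evenly there, with 48.5% lower. Without ZR751shLucif replicate 2 the median was −0.91, and 32 of the 78 were called, all 32 lower in ZR751shMLL3 and all 32 highest in the library labelled ZR751shLucif replicate 1, where 8.23% of all genes were called lower. In both of these fits the lone control library was assumed to vary like the pair of ZR751shMLL3 libraries.

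**Figure D2:**
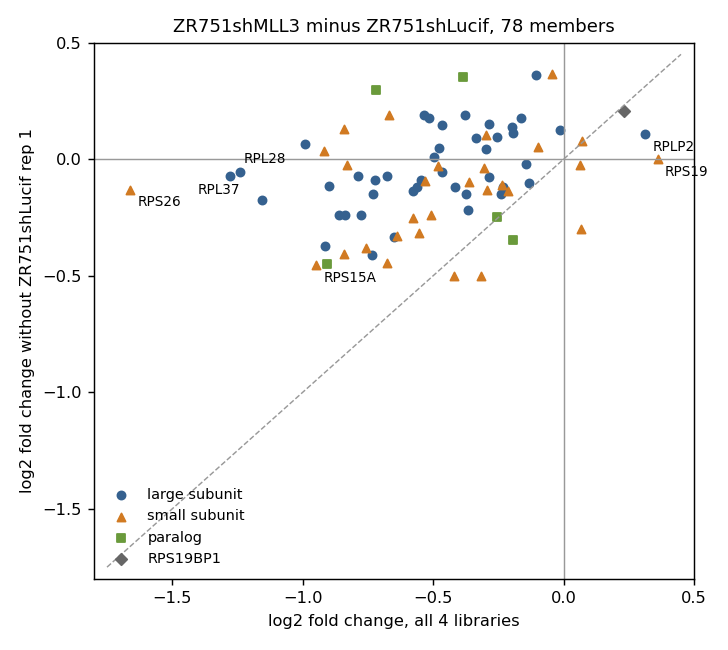
Log2 fold change (ZR751shMLL3 minus ZR751shLucif, on log2(FPKM + 0.5)) of each of the 78 genes in all 4 libraries (x axis) and without ZR751shLucif replicate 1 (y axis), with equal values on the dashed line. RPS26 moved from −1.66 to −0.13 and RPL37 from −1.28 to −0.07, and most genes collected near 0 on the y axis.

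The genes with the 6 lowest fold changes showed the same arrangement of libraries. RPS26, a small-subunit protein near the mRNA exit, had FPKM of 6846 and 820 in ZR751shLucif and 693 and 808 in ZR751shMLL3, for a log2 fold change of −1.66 with a standard error of 0.90 and an adjusted p of 0.631 by limma. RPL37, a zinc-binding large-subunit protein, had 1466 and 276 in ZR751shLucif and 216 and 318 in ZR751shMLL3. RPL28 of the large subunit had 3723 and 719 against 652 and 737. In each of these 3, only the first control library stood away, and for RPL37 and RPL28 the 2 lines overlapped. RPL26, which binds the p53 mRNA, had 2850 and 732 in ZR751shLucif and 606 and 692 in ZR751shMLL3. RPL11 had 5513 and 1274 against 1451 and 1224, and overlapped between the lines. RPS15A, of the small subunit, had 2889 and 1459 in ZR751shLucif and 928 and 1222 in ZR751shMLL3, and differed from the first 5 in that its log2 fold change was −0.95 in all libraries and still −0.45 without the first control. Adjusted p-values of the 6 by limma lay between 0.613 and 0.660.

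At the other end, RPS19, whose mutations cause Diamond-Blackfan anemia, had FPKM of 930 and 1537 in ZR751shLucif and 1596 and 1479 in ZR751shMLL3, for a log2 fold change of 0.36 with a standard error of 0.33 and an adjusted p of 0.729 by limma. Without the first control the value was −0.00054. RPLP2, an acidic stalk protein, had 505 and 672 in ZR751shLucif and 765 and 684 in ZR751shMLL3, for a log2 fold change of 0.31, or 0.11 without the first control. RPLP2 did not overlap between the lines, and RPS19 did. RPS19BP1 had 36.9 and 38.2 against 43.4 and 44.9, RPS21 had 965 and 1607 against 1128 and 1507, and RPS14, the gene of the 5q deletion syndrome, had 994 and 1122 against 932 and 1304. Log2 fold changes of these 3 lay between 0.06 and 0.23, and RPS19BP1 turned to −0.016 with the GC content trend removed. Without the first control RPS21 turned to −0.30 and RPS14 to −0.025.

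**Figure D3:**
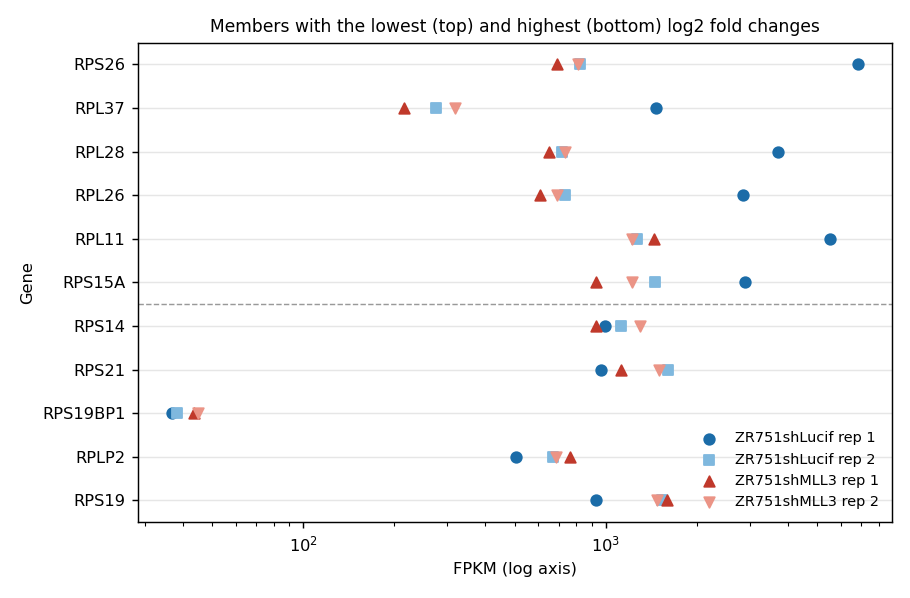
FPKM (log axis) in each of the 4 libraries for the 6 genes with the lowest log2 fold change (above the dashed line) and 5 of the 6 with the highest (below it). In the upper 6 rows ZR751shLucif replicate 1 lies 2.40 to 8.84 times above the mean of the other 3 libraries, and in the lower rows it lies between 0.605 and 0.888 times that mean.

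A ratio of 2 genes within a library does not depend on the scaling of that library, and it compares RNA levels only. The pairs were chosen after their values were seen. RPS26 to RPS19, the genes with the lowest and the highest fold change, was 7.36 in the library labelled ZR751shLucif replicate 1, and 0.534, 0.434 and 0.547 in ZR751shLucif replicate 2 and the 2 ZR751shMLL3 libraries. RPLP1 to RPLP2, whose products form the dimers of the stalk, was 13.1 in the first and 4.41, 3.67 and 3.71 in the others. RPL5 to RPL11, which enter the ribosome together with the 5S rRNA, was 0.208 in the first and 0.429, 0.298 and 0.404 in the others. The summed FPKM of the large subunit was 1.38 times that of the small subunit in the first library and 1.24, 1.34 and 1.31 times in the others.

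Genes named for what is known of their proteins were also examined. RPLP0, the base of the stalk and a common reference gene for qPCR, had FPKM of 2759 and 2069 in ZR751shLucif and 2007 and 1917 in ZR751shMLL3, for a log2 fold change of −0.28 with a standard error of 0.28. RPSA, also known as the laminin receptor, had 1248 and 1403 in ZR751shLucif and 1036 and 946 in ZR751shMLL3, for a log2 fold change of −0.42 with all libraries and −0.50 without the first control. RPS6, the substrate of the S6 kinases, had 2539 and 1392 against 890 and 1238, for a log2 fold change of −0.84. All 3 were lower in both ZR751shMLL3 libraries than in both controls. RPL5 had 1148 and 546 in ZR751shLucif and 432 and 495 in ZR751shMLL3. RPS27A, made as a fusion with ubiquitin, had 876 and 570 in ZR751shLucif and 417 and 493 in ZR751shMLL3. For both genes the lines again did not overlap, and limma's adjusted p over the 5 genes lay between 0.620 and 0.752. Both ZR751shMLL3 libraries were also lower for 47.4% of the 78 ribosomal protein genes and 25.3% of all genes tested. RPL11, given above, overlapped.

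Of the 8 paralogs, 5 passed the filter, all 5 with a lower mean in ZR751shMLL3, and without the first control 3 were lower and 2 higher. RPL26L1, a close relative of RPL26, had FPKM of 59.5 and 31.4 in ZR751shLucif and 20.9 and 24.9 in ZR751shMLL3, for a log2 fold change of −0.91 with a standard error of 0.37, an unadjusted p of 0.048 and an adjusted p of 0.613 by limma. RPL36AL had 990 and 241 in ZR751shLucif and 300 and 293 in ZR751shMLL3. RPS27L, a p53 target, had 96.0 and 94.8 against 76.2 and 83.5, RPL7L1 had 26.2 and 32.5 against 25.5 and 25.4, and RPL22L1 had 5.36 and 1.6 against 2.32 and 2.05. For RPL26L1, RPS27L and RPL7L1 the lines did not overlap, with ZR751shMLL3 lower, as for 25.3% of all genes tested. RPL36AL and RPL22L1 turned to 0.30 and 0.35 without the first control, and RPL7L1 and RPS27L turned to 0.021 and 0.045 with the GC content trend removed. As a share of its partner in the same library, RPL26L1 was at 2.09% and 4.29% of RPL26 in ZR751shLucif and 3.45% and 3.60% in ZR751shMLL3. RPL22L1 was at 0.537% and 0.476% of RPL22 in ZR751shLucif and 0.798% and 0.619% in ZR751shMLL3. Of 82 genes, 74 have at least 1 named pseudogene, with a median of 9.5, so levels of single genes depend on how reads shared with copies were assigned.

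Introns of 27 of the genes host small nucleolar RNAs. The median log2 fold change of these 27 was −0.53, with 26 lower, and that of the 51 other genes that passed the filter was −0.37, with 46 lower. Without the first control the medians were −0.07 and −0.10. FAU and RACK1, ribosomal proteins outside the symbol rule, both had a lower mean in ZR751shMLL3 and both were highest in the library labelled ZR751shLucif replicate 1. Of the 4 on the X chromosome, RPL36A had FPKM of 3900 and 581 in ZR751shLucif and 435 and 483 in ZR751shMLL3, for a log2 fold change of −1.71, and RPL39 had the highest fold change of the 4, at 0.04, or −0.15 without the first control.

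Lists of related genes were compared with the ribosomal protein genes. Among 20 other mRNAs known as 5′ TOP mRNAs, most of them for factors of translation, 18 were lower in ZR751shMLL3 and the median log2 fold change was −0.61, with 0 called by limma and 2 at an unadjusted p under 0.05. The 2 lowest were EIF3E, a subunit of initiation factor eIF3, at −1.14 and BTF3, a subunit of the nascent polypeptide complex, at −1.01, and the 2 highest were NACA, its partner, at 0.11 and EIF3K at 0.04. Among 30 genes of ribosome biogenesis, 23 were lower and the median was −0.44, with 0 called by limma and 1 at an unadjusted p under 0.05. RPF2, which brings the 5S particle into the pre-ribosome, was at −0.89 and BRIX1 at −0.85, and POLR1A, the largest subunit of RNA polymerase I, was at 0.59 and BOP1 at 0.15. Among 76 proteins of the mitochondrial ribosome, 63 were lower and the median was −0.31, with 0 called by limma and 5 at an unadjusted p under 0.05. Of all 11134 genes tested, 59.1% were lower and 7.98% were at an unadjusted p under 0.05 by limma. MRPS21 was at −1.07 and MRPS10 at −0.97, and MRPL55 was at 0.31 and MRPL27 at 0.25. Without the first control the medians of the 3 lists were −0.09, −0.04 and 0.01, and the library labelled ZR751shLucif replicate 1 was the highest for 95.0%, 70.0% and 81.6% of their genes. The median excess of that library over the other 3 was 0.95, 0.69 and 0.60 on the log2 scale in the same order, against 0.83 for the ribosomal protein genes. MRPS10 was among several genes that stayed lower without the first control. It had FPKM of 44.1 and 39.6 in ZR751shLucif and 19.7 and 22.7 in ZR751shMLL3, and a log2 fold change of −0.89 in that fit. MRPS35 had FPKM of 78.2 and 99.9 in ZR751shLucif and 49.4 and 65.8 in ZR751shMLL3. HEATR1, of ribosome biogenesis, had 8.49 and 14.6 against 7.04 and 8.49, and overlapped between the lines. Both were highest in ZR751shLucif replicate 2, the lone control once the first was left out. In that fit MRPS35 was at −0.80 and HEATR1 at −0.88. There 40 of the 76 mitochondrial and 13 of the 30 biogenesis genes were higher.

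**Figure D4:**
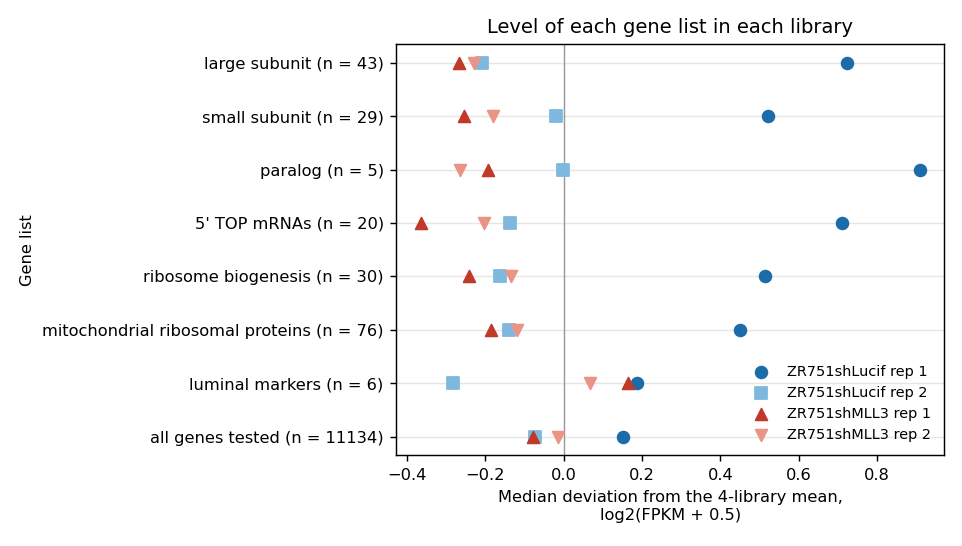
Median over the genes of each list (y axis, number of genes tested in brackets) of the deviation of each library from the gene's mean over the 4 libraries, on log2(FPKM + 0.5). ZR751shLucif replicate 1 stood 0.72 above for the large subunit, 0.52 for the small subunit and 0.45 for the mitochondrial ribosomal proteins, and 0.15 above for all genes tested.

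SP1, a zinc finger factor that binds GC boxes in promoters, was compared between the lines at the transcription start sites (TSS) of all 82 genes. SP1 peaks called at a false discovery rate (FDR) of 0.01 or less within 1 kb of the TSS were found for 0 and 0 of 82 genes in ZR751shLucif and for 29 and 55 of 82 in ZR751shMLL3. Both ZR751shLucif lists hold no peak at that FDR anywhere in the genome, with a lowest listed FDR of 0.0290 and 0.0622, while the ZR751shMLL3 lists hold 204178 of 209985 and 12065 of 300000 peaks at that FDR. At this FDR the lists themselves differ between the lines, and the other protein-coding genes tested had a peak in 0%, 0%, 25.6% and 47.6% of cases. The mean counts of 0 and 42 gave p = 0.333 in the exact two-sided permutation test over the 4 libraries, which is the smallest p that 2 libraries against 2 allow.

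Ranked lists of equal length are less dependent on the FDR scale. When each list was limited to its 10000 top-ranked peaks, 0 and 5 of the 82 genes had an SP1 peak in ZR751shLucif, and 4 and 54 had one in ZR751shMLL3. The shares were 0%, 6.10%, 4.88% and 65.9%, and those of the 10081 other protein-coding genes tested were 3.82%, 4.31%, 4.89% and 45%. The difference thus lay in ZR751shMLL3 replicate 2 alone, where the ribosomal protein genes and the other genes both had their highest share. The mean counts of 2.5 and 29 gave p = 0.667 in the exact two-sided permutation test, and without ZR751shMLL3 replicate 2 the difference of the mean counts went from 26.5 to 1.5. Peak widths also differed between the lists, at 360 and 216 bases in ZR751shLucif and 280 and 500 bases in ZR751shMLL3.

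**Figure D5:**
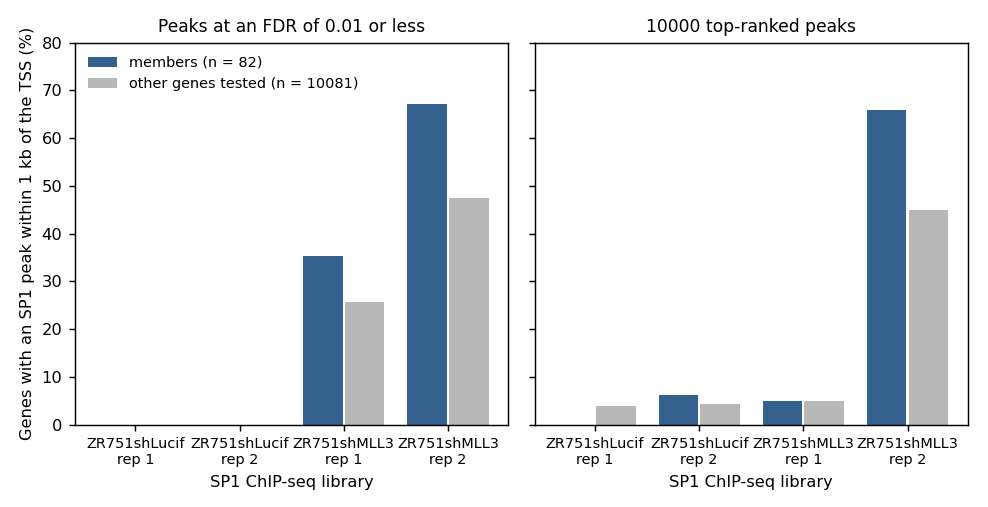
Share of genes (%) with an SP1 peak within 1 kb of the TSS in each SP1 ChIP-seq library, for the 82 ribosomal protein genes and the 10081 other protein-coding genes tested, at an FDR of 0.01 or less (left) and among the 10000 top-ranked peaks (right). On the left both ZR751shLucif libraries are at 0% because their lists hold no such peak, and on the right ZR751shMLL3 replicate 2 reaches 65.9% for the ribosomal protein genes while the other 3 libraries stay at or below 6.10%.

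At the FDR of 0.01, 25 of the 82 genes had a peak in both ZR751shMLL3 libraries and in no ZR751shLucif library (30.5%, against 18.1% of the other genes tested). Among the 10000 top-ranked peaks this was so for 2 of 82, RPL4 and RPL41 (2.44%, against 2.43%), and among all listed peaks for 6 of 82 (7.32%, against 8.59%). RPL4, of the wall of the exit tunnel, had its best SP1 peak at rank 19 and 463 in ZR751shMLL3 and at rank 53232 and 61767 in ZR751shLucif, so that a peak was listed in the control line as well. RPL41 was at rank 491 and 826 in ZR751shMLL3, at rank 57456 in ZR751shLucif replicate 1, and not listed in ZR751shLucif replicate 2. RPS6 was at rank 7219 and 11814 in ZR751shMLL3, at rank 144443 in ZR751shLucif replicate 1, and not listed in replicate 2. RPS19 was listed in all 4, at rank 30705 and 4268 in ZR751shLucif and 116 and 193 in ZR751shMLL3, with summits at −534 to −475 bases from the TSS. In all, 9 of 82 genes had a listed SP1 peak in all 4 libraries (11.0%, against 6.33% of the other genes tested).

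The letters of the GC box, GGGCGG on either strand, were searched in the 200 bases before the TSS. They were present for 44 of the 82 genes (53.7%), for 56.8% of all protein-coding genes and for 71.7% of the other genes tested. The letters CCGGAAG of an ETS site, on either strand, were present for 22 of 82 (26.8%), for 11.0% of all protein-coding genes and for 16.3% of the other genes tested. TATAAA on either strand was present for 8 of 82 (9.76%), for 7.79% and for 3.58% of the same groups. The promoters of the genes with the lowest and highest fold change, of the most highly expressed gene, and of the 3 genes with the best SP1 ranks in both ZR751shMLL3 libraries that are not among those already shown follow, as the 200 bases before the TSS in GRCh37 with GC boxes in capitals.
RPS26, chr12:56435502-56435701, + strand: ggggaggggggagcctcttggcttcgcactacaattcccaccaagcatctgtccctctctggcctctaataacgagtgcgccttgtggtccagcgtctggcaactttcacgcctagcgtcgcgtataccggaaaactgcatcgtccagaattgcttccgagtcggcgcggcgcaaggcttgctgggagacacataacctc
RPL37, chr5:40835325-40835524, - strand: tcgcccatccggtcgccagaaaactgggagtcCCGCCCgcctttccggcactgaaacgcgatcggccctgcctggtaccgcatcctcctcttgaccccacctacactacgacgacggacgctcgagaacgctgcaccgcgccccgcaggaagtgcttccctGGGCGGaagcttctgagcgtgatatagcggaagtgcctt
RPS19, chr19:42364125-42364324, + strand: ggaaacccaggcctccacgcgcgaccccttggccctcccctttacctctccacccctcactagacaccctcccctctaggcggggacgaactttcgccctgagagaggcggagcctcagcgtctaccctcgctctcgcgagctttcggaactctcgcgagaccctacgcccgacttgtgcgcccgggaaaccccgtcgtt
RPLP2, chr11:809767-809966, + strand: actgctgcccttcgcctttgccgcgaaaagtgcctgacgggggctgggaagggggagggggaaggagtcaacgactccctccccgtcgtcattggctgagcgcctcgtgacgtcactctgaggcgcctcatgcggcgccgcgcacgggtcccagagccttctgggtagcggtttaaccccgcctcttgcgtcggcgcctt
RPS2, chr16:2014828-2015027, - strand: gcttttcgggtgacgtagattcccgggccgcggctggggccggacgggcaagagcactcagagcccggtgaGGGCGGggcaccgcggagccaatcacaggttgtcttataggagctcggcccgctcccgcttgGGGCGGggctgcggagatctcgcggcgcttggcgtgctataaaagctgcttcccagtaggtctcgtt
RPL4, chr15:66797194-66797393, - strand: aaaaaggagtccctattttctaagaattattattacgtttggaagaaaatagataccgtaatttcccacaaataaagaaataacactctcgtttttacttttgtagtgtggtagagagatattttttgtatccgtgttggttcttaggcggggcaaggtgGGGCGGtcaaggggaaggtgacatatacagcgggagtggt
RPL41, chr12:56510217-56510416, + strand: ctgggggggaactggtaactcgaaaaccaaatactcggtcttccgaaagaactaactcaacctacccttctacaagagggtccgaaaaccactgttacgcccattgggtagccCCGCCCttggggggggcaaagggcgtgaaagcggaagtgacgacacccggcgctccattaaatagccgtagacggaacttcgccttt
RPS6, chr9:19380235-19380434, - strand: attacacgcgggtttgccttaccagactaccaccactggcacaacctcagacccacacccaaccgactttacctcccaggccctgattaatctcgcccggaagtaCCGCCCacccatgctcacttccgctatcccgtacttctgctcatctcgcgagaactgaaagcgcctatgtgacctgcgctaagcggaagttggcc
RPL37 and RPS2 hold 2 GC boxes each, RPL4, RPL41 and RPS6 hold 1 each, and RPS26, RPS19 and RPLP2 hold 0 in this window. A GC box was present for 15 of the 25 genes with a peak in both ZR751shMLL3 libraries, 19 of the 34 with a peak in 1 library and 10 of the 23 with a peak in no library. The median log2 fold change in RNA of the same 3 classes was −0.48, −0.42 and −0.46, with 25, 34 and 19 genes tested.

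H3K4me1, the mark of enhancers that MLL3 deposits, and ERα were described at the same sites. H3K4me1 peaks at an FDR of 0.01 lay within 1 kb of the TSS for 19 and 13 of the 82 genes in ZR751shLucif and for 0 and 12 in ZR751shMLL3. The other genes tested had such a peak in 33.1% and 38.9% of cases in ZR751shLucif and in 4.12% and 17.5% in ZR751shMLL3. The mean counts of 16 and 6 gave p = 0.333 in the exact two-sided permutation test, the smallest possible, and the lists differ in length at this FDR, with 141158 and 192201 peaks in ZR751shLucif and 28599 and 109586 in ZR751shMLL3. Among the 10000 top-ranked H3K4me1 peaks, 0 of the 82 genes had one in any library, and 1.36% to 3.01% of the other genes tested did. ERα peaks at an FDR of 0.01 were present for 4 and 0 of 82 genes in ZR751shLucif and for 0 and 2 in ZR751shMLL3, and for 7.94%, 1.23%, 0.198% and 1.36% of the other genes tested in the same order. Among the 10000 top-ranked ERα peaks, 0 of 82 genes had one in any of the 4 libraries, where 0.377% to 1.92% of the other genes tested had one.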

How the data were processed

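RNA-seq and ChIP-seq were made from ZR751shLucif and ZR751shMLL3 cells, with 2 libraries per line and assay. The deposited FPKM were made by the authors with TopHat 2.0.13, Cufflinks and Cuffnorm 2.2.1 on hg19, per RefSeq entry, from stranded total RNA libraries. The deposited peak lists give the SPP signal and the −log10 of the FDR of each peak, which the authors called per library against an input after alignment with BWA 0.7.5a-r405 and duplicate removal with Picard 1.126. RefSeq identifiers were matched to symbols for 22894 of 23500 entries. Of 115 entries that match the symbols, 25 pseudogenes, 2 lncRNAs and 6 genes on X or Y were left out. The entries of 6 of the 82 ribosomal protein genes, RPS27A among them, also hold RefSeq identifiers of other genes, so their FPKM may include these.

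FPKM were tested as log2(FPKM + 0.5), on genes with a mean above 1, with limma 3.58.1 in R 4.3.3 and Benjamini-Hochberg adjustment over 11134 genes, at an adjusted p of 0.05. Fold changes are on this scale, which understates those of low genes. GENCODE on GRCh37, the same assembly as hg19, gave start sites, transcript GC content and length. The length is not the one used for the FPKM. Among the 78 ribosomal protein genes that passed the filter it ranged from 295 to 7573 bases, with a median of 844.5. Whether the canonical transcript is the form expressed in these cells was not tested, and the GC content rests on the same transcript. Peaks were ranked by signal and matched to start sites in Python 3.11.15 with numpy 2.4.6 and pandas 2.3.3, and counts were compared by exact permutation in scipy 1.17.1. Each procedure was tested on simulated or made-up data. There limma with 2 libraries per line called large changes but no 2-fold ones, so a gene that is not called may still differ between the lines. FPKM do not carry the number of reads, so the depth behind single genes is unknown. The labels call the libraries biological replicates, and with 2 per line p-values measure their spread only.

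The members and gene lists were chosen with earlier results of these data known. Genes were named by rule: the 6 largest fold changes each way, the 5 highest and 5 lowest means, an unadjusted p under 0.05, RPLP0, RPLP1, RPLP2, RPSA, RPS6, RPL5, RPL11, RPS27A, every paralog, SP1 calls that differ between the lines in both replicates, and the 2 largest changes each way in each comparison list. Of the 25 genes that the SP1 rule gives, 4 are described, by rank. The genes in ratios, and MRPS10, MRPS35 and HEATR1 without the first control, were chosen after their values were seen. Alternatives were other pseudocounts, filters, scalings, GC content and length correction, surrogate removal, a replicate block, each library left out, and other peak thresholds and windows. The values of 3 genes are not reported here, and ChIP input libraries were not analysed here.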

Additional observations from a re-analysis of the deposited data

How the results depend on the processing

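No setting that kept all 4 libraries called a ribosomal protein gene, and the median log2 fold change stayed below 0 in every one, between −0.48 and −0.16. Leaving out 1 library at a time, the number called ranged from 0 to 32, the number lower from 51 to 73, the median from −0.91 to −0.082 and the fold change of KMT2C from −1.70 to −0.35. The main fit took the libraries as unpaired. Deviations of same-numbered libraries correlated at 0.0374 over all genes and −0.03 over the ribosomal protein genes. With 2 libraries per line these deviations only compare replicate 1 with replicate 2, so they cannot decide whether same-numbered libraries belong together. With the replicate block 0 of 78 were called, with a median of −0.47 and 8 at an unadjusted p under 0.05, against 7.17% of all genes, and over all genes the count went from 1 to 33. Surrogate removal used the first principal component. Of 441 fold changes of named genes, 16 changed sign, and no gene was called with all libraries. RPL11, RPL36AL and RPL22L1, which changed sign without the first control, were among the 32 called without ZR751shLucif replicate 2. Of the 16 sign changes, 7 came from settings that kept all libraries. With the GC content trend removed, these were RPS19BP1 at −0.016, RPS27L at 0.045 and RPL7L1 at 0.021. With GC content and length trends removed, they were RPL41 at 0.065 and RPL22L1 at 0.032. With quantile normalization, they were RPL41 at 0.064 and RPL13A at 0.18. Over the libraries left out in turn, RPL11 ranged from −2.05 to 0.064, RPS19 from −0.00054 to 0.72, RPS21 from −0.30 to 0.43, RPS14 from −0.18 to 0.30, RPL13A from −0.53 to 0.14, RPL22L1 from −1.13 to 0.35 and RPL36AL from −1.74 to 0.30. The cause was not tested.

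The difference in the mean number of genes with an SP1 peak was 42 at the FDR of 0.01. It was 22 with all listed peaks and 26.5 with the 10000 top-ranked peaks, also with the summit in the window and with a window of 500 bases. With 1 library left out it ranged from 29 to 55 at the FDR of 0.01 and from 1.5 to 51.5 with the 10000 top-ranked peaks. Without the SP1 library of ZR751shLucif replicate 1 it was 24, and 1.5 was the value without that of ZR751shMLL3 replicate 2. For H3K4me1 the difference was −10 at the FDR of 0.01, −12 with all listed peaks, 0 with the 10000 and 2.5 with the 50000 top-ranked peaks. For ERα it was −1, 0 with the 10000 top-ranked and −5 with all listed peaks. The settings of rank other than the FDR were added after seeing the data for H3K4me1 and ERα, as were both scalings to a common total and the windows within the 10000 top-ranked SP1 peaks.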
